A study of Mus musculus with 8 samples.

Results

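The genes described here are 73 zinc finger genes of the mouse, out of 18058 genes in the deposited expression table. They were chosen by name: 52 carry a Zfp name with a 3-digit number that starts with 9 (hereafter Zfp9xx), and 21 were listed singly by their Gm or Rik names because their level was higher in the retina of quadruple KO mice than in WT. The 21 listed genes all lie on distal chromosome 2. The question put to the data was whether the rise in the KO was kept to that cluster or was shared by Zfp9xx genes elsewhere. For the 21 listed genes the difference between KO and WT was what chose them, so their values are given as a description.

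Retinae of WT and quadruple KO mice, all adult, were sequenced as total RNA in 4 libraries per group, named A to D. The methods describe pooling of retinae before RNA extraction and do not say how many mice gave each library. The WT mice were of the inbred strain 129S2/SvPasCrl, which the methods call the background strain. No other strain is named there for the KO mice. The quadruple KO mice lacked functional Bcan, Ncan, Tnc and Tnr, which encode brevican, neurocan, tenascin-C and tenascin-R of the extracellular matrix, and came from crosses of single KO lines. Both sexes were used in the study, and the labels name neither the sex nor a batch for any library. The effect of the KO alleles and that of any other DNA that differs between the KO line and the WT strain cannot be told apart in this design.

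KRAB zinc finger genes are among the largest families of DNA-binding factors in mammals, and they have multiplied by tandem duplication into clusters of near copies. A typical protein carries a KRAB domain, which binds the corepressor Trim28 and through it histone and DNA methylating enzymes, and an array of zinc fingers that reads a DNA sequence, often one within a transposable element. Distal chromosome 2 holds such a cluster in the mouse, and clusters on chromosomes 4 and 13 hold other Zfp9xx genes. Because neighbouring genes are near copies, short reads from them are hard to assign to a single gene.

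The 21 listed genes span chr2:175163748-177599173 in the GRCm39 build, an interval of 2.44 Mb. GENCODE places 89 genes there, of which 37 are protein coding, and 32 of the 89 were in the expression table. Of these 32 genes, 27 were members: the 21 listed genes and Zfp965, Zfp966, Zfp967, Zfp968, Zfp970 and Zfp973. The annotation calls 23 of the 27 protein coding and 4 pseudogenes (Gm1980, Gm14411, Gm14416 and Gm14421), with 15 on the plus and 12 on the minus strand. GENCODE names Gm14327 as Zfp1003. The other 46 members lay outside the interval, 3 of them elsewhere on chromosome 2 (Zfp937, Zfp971 and Zfp931) and 43 on 10 other chromosomes, with 13 on chromosome 17, 9 on chromosome 4, 8 on chromosome 7 and 5 on chromosome 8.

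The zinc finger arrays of these genes are built from repeats of 84 bases, and the stretch between neighbouring fingers is so well kept that it can be used to recognise them. The run GGAGAGAAACC, which encodes part of this linker, was the most frequent run of 11 bases with at least 3 different bases in the transcripts of 293 other numbered Zfp genes. It was searched on the sense strand of the canonical transcript of each gene in the table. It was found in 1.88% of 17969 transcripts and occurred 5 or more times in 0.851% of them. Among the 27 members in the interval it occurred 5 or more times in 26, with a median of 10 copies and at most 15, and 81.4% of the 226 distances between neighbouring copies were exactly 84 bases. Among the 46 members outside, 28 carried 5 or more copies and 6 carried none. A single repeat from 4 genes is shown with the linker run in capitals, to let the likeness and the differences between fingers be seen. Each lies in exon 4 of 4 of its gene. The repeat of Gm14412 is at chr2:177007432-177007515 on the minus strand, that of Gm14403 at chr2:177200518-177200601, that of Zfp971 at chr2:177674781-177674864 and that of Zfp968 at chr2:175224058-175224141, these 3 on the plus strand.
Gm14412: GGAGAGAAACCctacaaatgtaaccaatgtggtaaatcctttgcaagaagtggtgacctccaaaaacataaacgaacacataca
Gm14403: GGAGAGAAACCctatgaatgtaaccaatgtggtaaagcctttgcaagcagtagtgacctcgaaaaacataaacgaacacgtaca
Zfp971: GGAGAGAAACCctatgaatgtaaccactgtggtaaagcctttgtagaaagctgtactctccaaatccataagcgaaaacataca
Zfp968: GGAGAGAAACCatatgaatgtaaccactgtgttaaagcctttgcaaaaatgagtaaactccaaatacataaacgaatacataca

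The start regions of the genes in the cluster were also compared. A window of 300 bases, 250 before and 50 after the start of the canonical transcript, was taken for 34 genes: the 32 of the interval, Zfp971 and Zfp931. In 9 of the 34 the canonical transcript starts more than 1 kb inside the annotated gene, so that the window is not the start of every transcript. Each pair of windows was aligned end to end with gaps allowed, and identity was the share of the 300 bases that matched. The median identity over the 561 pairs of windows was 61.0%. For 28 of the 34 the most similar other window was identical at 95% or more of its bases when so aligned, and 19 of the pairs were at 99% or more. The sequence CCAAT, on either strand, was in 30 of the 34 windows, against 38.4% of the windows of 17968 genes in the table. The 4 windows without it were those of the 4 pseudogenes. Whether transcription begins at the annotated start of these pseudogenes was not examined. The sequence GGGCGG was in 0 of the 34 and in 50.2% of all windows, and TATAAA was in 2 of the 34, the windows of 2210418O10Rik and Gm14296, and in 10.4% of all.

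Differences were also counted position by position, without gaps. In 6 pairs the windows were identical, and in 4 they differed by 1 base. The 4 were Zfp968 and Zfp973, Zfp965 and Zfp967, and Gm6710 with each of Gm14305 and Gm14295. The first of these pairs is shown because both canonical transcripts start at the first annotated base of the gene, up to which the window is printed. The differing base is in capitals, and positions are counted from 1 at the 5′ end of the window. Zfp968 at chr2:175213979-175214228.0 and Zfp973 at chr2:176362065-176362314.0, both on the plus strand, differed by A106G.
Zfp968: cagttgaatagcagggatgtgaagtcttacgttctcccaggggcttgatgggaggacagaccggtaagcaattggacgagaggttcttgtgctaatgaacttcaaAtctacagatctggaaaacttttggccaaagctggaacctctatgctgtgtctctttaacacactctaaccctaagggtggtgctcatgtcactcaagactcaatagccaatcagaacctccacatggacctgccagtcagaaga
Zfp973: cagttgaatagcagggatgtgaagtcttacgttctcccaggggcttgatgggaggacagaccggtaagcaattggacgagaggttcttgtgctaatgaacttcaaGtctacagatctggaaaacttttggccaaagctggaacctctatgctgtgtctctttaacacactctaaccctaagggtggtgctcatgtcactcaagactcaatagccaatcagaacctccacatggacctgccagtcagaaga
The windows of Zfp965 and Zfp967 differed by G28A. This was the same site as in the first pair: the windows of Zfp968 and Zfp967 shared a run of 222 bases that held the A, and those of Zfp973 and Zfp965 shared a run of 222 bases that held the G. Gm6710 differed from Gm14305 and from Gm14295 by G119A, in windows that lie inside the annotated genes, where the canonical transcript starts 3882, 3634 and 3621 bases after the start of Gm6710, Gm14305 and Gm14295. All of these sequences are those of the GRCm39 reference, which was made from another inbred strain, and the DNA of the WT and KO mice was not analysed here.

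The deposited values are counts estimated per gene and normalized for library size, called normalized counts below. In the KO, Ncan was at most 0.853 against 569 to 789 in WT, Bcan was 11.5 to 22.1 against 197 to 327, and Tnr was 2374 to 2580 against 5578 to 6317. Tnc was not lower, at 1024 to 1249 in KO and 881 to 1592 in WT. The paper reports that a stretch of the Tnc gene was lost in the KO. It also reports that blots of postnatal KO retina showed no Tnc protein. The gene totals used here do not tell exons apart. All 15 retinal marker genes examined were measured in all 8 libraries at 121 or more, and none of them was called changed by limma. The lens genes Cryaa and Crygs ranged from 11.7 to 1154 and from 2.95 to 226 over the libraries of both groups. The libraries WT B and WT C stood apart from the other 6: transcripts of the 13 protein genes of the mitochondrial genome made up 0.402% and 0.341% of their normalized counts, against 1.28% to 1.64% in the others, and 2 rows of signal recognition particle RNA made up 19.3% and 14.8% against 6.82% to 8.69%.

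Most members in the interval had deposited values of 0 or near 0 in the WT retina and higher values in the KO. The values are estimated from reads assigned among GRCm39 genes, many of them near copies. A value of 0 thus does not by itself show that a gene was silent. Of the 27, 10 had a value of 0 in each WT library, and a further 8 that rose in the KO had no WT value of 5 or more. In the KO, every called member of the interval had a value of at least 14.5 in every library. Together, the 27 members held 0.00297% to 0.00445% of all normalized counts in WT libraries and 0.0194% to 0.0219% in KO libraries. Since whole retina was sequenced, more expressing cells and more RNA per cell cannot be told apart.

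A gene was called when its adjusted p (Benjamini-Hochberg over 17636 genes) was under 0.05 in limma on log2(normalized count + 1). By this rule 0.261% of all genes tested were higher in the KO and 0.176% were lower. All 73 members were tested, and 24 were called, all of them higher in the KO. They were the 21 listed genes, from which nothing can be read since they were listed for it, and 3 of the 52 Zfp9xx genes: Zfp970 and Zfp973 in the interval, and Zfp971 just beyond it. These 3 had WT means of 2.90, 1.15 and 1.42, under the mean of 10 required for testing. They entered the test only through their KO values. A gene this low in WT could be tested only if higher in the KO, so their calls are a description too. By limma 16.6% of all genes tested had an unadjusted p under 0.05. The median log2 difference was 2.47 over the 6 Zfp9xx members in the interval and 0.25 over the 46 members outside it, against -0.00018 over all genes tested. The 2.47 falls in a gap and is the difference of none of the 6. Zfp968, Zfp967 and Zfp966, with WT values well above 0, were at -0.73, -0.12 and 0.49. Zfp965, Zfp970 and Zfp973, near 0 in WT, were at 4.46, 5.42 and 6.98. Differences of genes listed at 0 in WT depend on the 1 added before the logarithm and are no bound on the change.

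**Figure D1:**
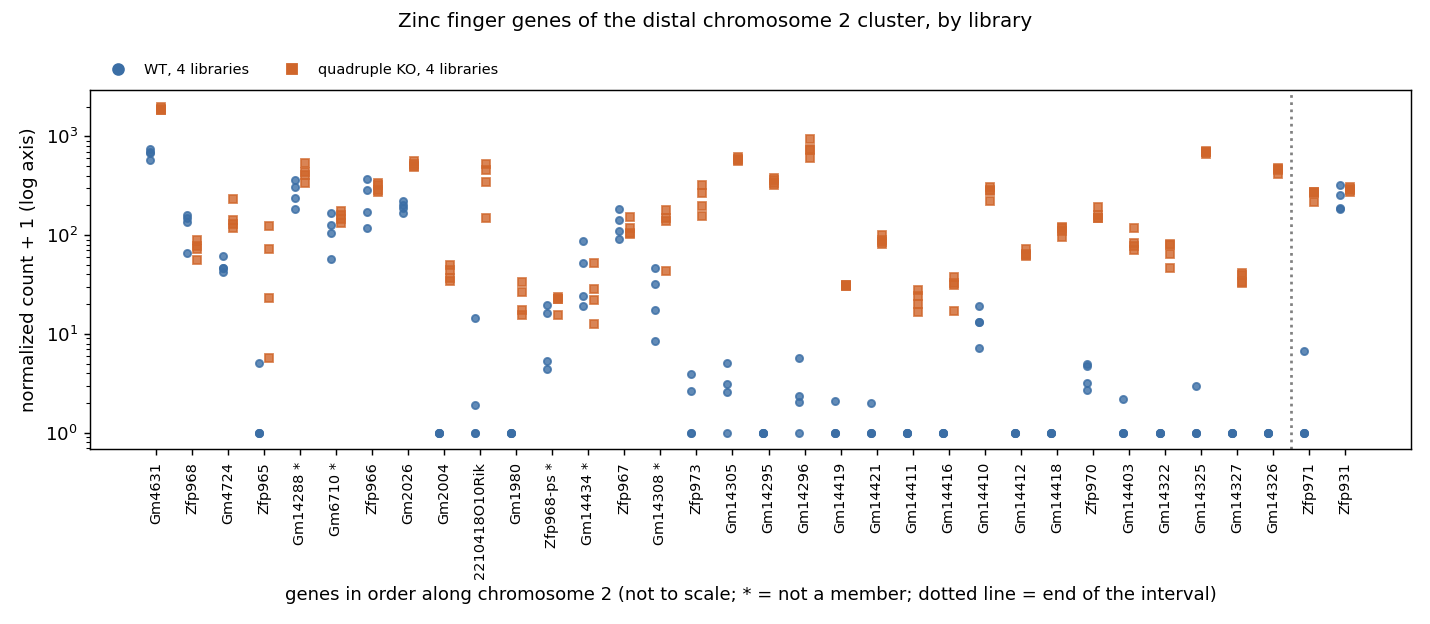
Normalized count plus 1 (log axis) of each of the 32 genes of the chromosome 2 interval and of Zfp971 and Zfp931, in order along the chromosome, with 1 point for each of the 4 WT (circles) and 4 quadruple KO (squares) libraries. From Zfp973 to Zfp971 the WT points lie near 1, or near 10 for Gm14410, and the KO points far above them, while Zfp966, Zfp967 and Zfp931 overlap between the groups.

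The highest levels reached in the KO belonged to genes on both sides of this divide. Gm4631, at the proximal end of the interval (chr2:175163748-175179990, minus strand), was at 685, 701, 573 and 742 in WT libraries A to D and at 1889.5, 1844, 1858 and 1997 in the KO. Gm2026 was at 200.3, 165, 186 and 223 in WT and 559, 485, 501 and 519 in the KO. These genes were well expressed in WT, all 4 KO libraries lay above all 4 WT libraries for each, and the ratios of the means were 2.81 and 2.67.

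Gm14325 was, by contrast, at 1.99, 0, 0 and 0 in WT and 696, 701, 699 and 656 in the KO. Its neighbour Gm14326, at the distal end of the interval, was at 0 in all 4 WT libraries and at 459, 461, 482 and 413 in the KO. Gm14295 was likewise at 0 in all 4 WT libraries and at 320.3, 378, 339.7 and 357 in the KO. For these 3 genes the KO libraries differed from each other by little, with coefficients of variation of 3.1%, 6.47% and 7.01%.

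Gm14305 was at 1.61, 4.13, 0 and 2.13 in WT and 572, 561, 594 and 611 in the KO. Its span, introns included, shares 10787 bases of the same strand with that of Zfp973. Zfp973 was at 1.64, 0, 0 and 2.96 in WT and 266, 196, 154 and 319.8 in the KO. Overlap of exons was not examined, and reads from any shared exon cannot be given to either gene with certainty. Gm14296 was at 1.06, 1.37, 0 and 4.68 in WT and 939, 718, 608 and 749.5 in the KO, and 2210418O10Rik was at 0.904, 0, 13.3 and 0 in WT and 149, 528, 339.9 and 451 in the KO. For all 4 genes the groups were far apart, and the KO values of 2210418O10Rik and Zfp973 varied more than those of Gm14305.

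Gm14410 and Zfp970 had low values above 0 in every WT library and higher values in the KO. Gm14410 was at 12.1, 6.14, 18.1 and 12.1 in WT and 305, 282, 218 and 281 in the KO, a ratio of means of 22.4. Zfp970 (chr2:177156498-177183583, plus strand) was at 3.93, 2.23, 3.75 and 1.69 in WT and 148, 159.8, 148 and 190.1 in the KO, a log2 difference of 5.42 ± 0.25 (SE, n = 4 per group, limma adjusted p = 6.43e-06). For Zfp973 the log2 difference was 6.98 ± 0.48 (limma adjusted p = 8.14e-05).

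The other called members of the interval were lower. Gm4724 was at 61.2, 41.2, 46 and 45.2 in WT and 234, 118, 128 and 140.4 in the KO. The remaining 11 listed genes (Gm2004, Gm1980, Gm14419, Gm14421, Gm14411, Gm14416, Gm14412, Gm14418, Gm14403, Gm14322 and Gm14327) had KO means between 21.3 and 110.4 and were at 0 in 41 of their 44 WT values, with no WT value above 1.21. All 4 pseudogenes were among them. Scaled by exonic length, the KO level of the called members of the interval ran from 5.23 normalized counts per kb for Gm14419 to 431 for Gm4631, with a median of 40.2.

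Zfp966, Zfp967 and Zfp968 lay among the risen genes and were not called. Zfp966 was at 286, 171, 118 and 369 in WT and 275, 320.4, 285 and 335 in the KO (log2 difference 0.49 ± 0.31, limma adjusted p = 0.369). Zfp967 was at 142, 109, 184 and 91.3 and 102, 103, 118 and 151 (-0.12 ± 0.23, limma adjusted p = 0.771). Zfp968 was at 147, 159.8, 65.1 and 134 and 76.4, 72.1, 55.1 and 88.6 (-0.73 ± 0.28, limma adjusted p = 0.301). The groups overlapped for all 3, and their WT means ran from 127 for Zfp968 to 236 for Zfp966. Zfp965 had every KO library above every WT library, at 0, 4.13, 0 and 0 in WT and 22.1, 70.7, 123 and 4.75 in the KO, but its KO values spread so widely that it was not called (4.46 ± 0.96, limma adjusted p = 0.184).

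**Figure D2:**
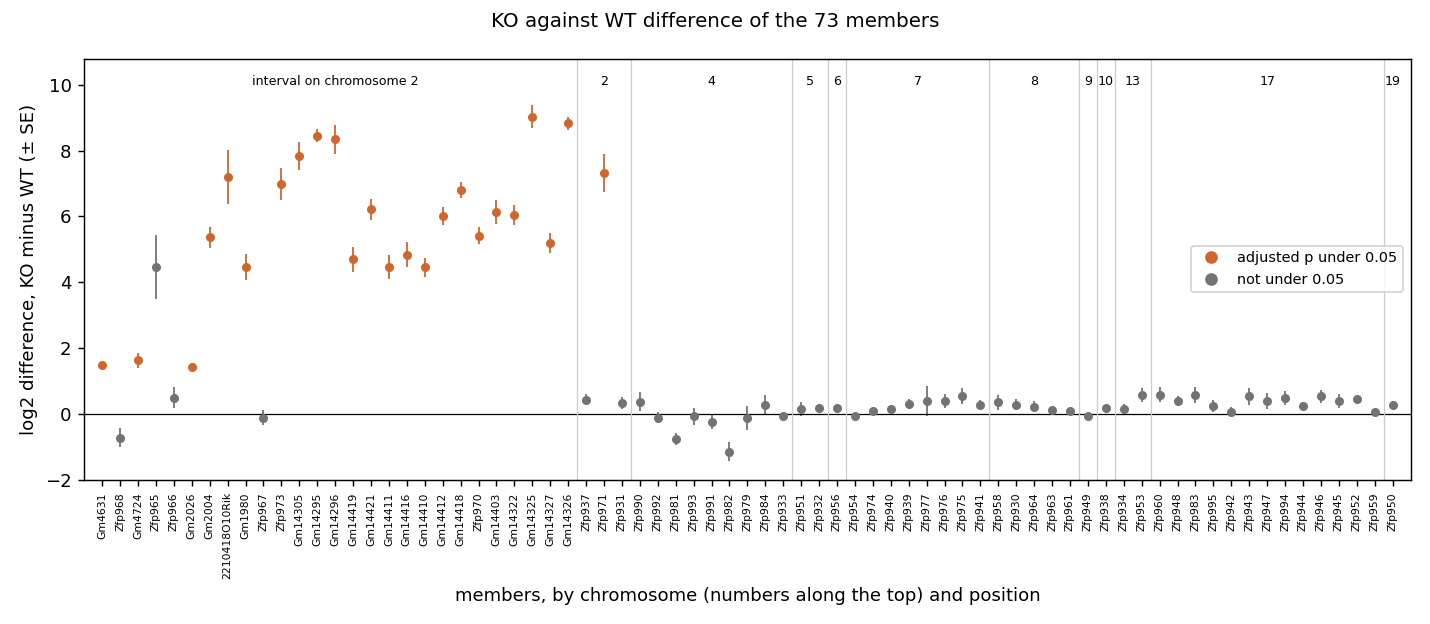
Log2 difference, KO minus WT, with its standard error (limma, n = 4 per group) for the 73 members, in the interval on chromosome 2 and then by chromosome and position. The 24 called members all lie above 0, and Zfp971 is the only called member outside the interval.

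Since the genes are near copies, the share of each transcript that could be told from other genes was measured. Each canonical transcript was cut into windows of 75 bases at every position, and a window was counted as shared when it also occurred in a transcript of another gene. The median share was 85.0% over the 27 members in the interval and 5.34% over the 46 outside. In 9 of the 27 every window was shared, so that no stretch of this length in the canonical transcript set the gene apart. Exons outside the canonical transcript were not examined, and they can be the larger part, as for Gm14296 with 750 of 9870 bases examined. The 4 members of the interval that were not called were all among these 9.

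Of the 23 called members in the interval, 5 had under 50% of their windows shared: Gm14412, Gm14403, Gm14418, Gm14411 and Zfp970. All but Zfp970 were listed for their rise, and Zfp970 was tested only through its KO values. The values of all 5 are thus a description. Gm14412, with 9.02% of its windows shared, was listed at 0 in all 4 WT libraries and was at 60.4, 62.8, 61.4 and 72 in the KO. Gm14403, with 17.5% shared, was at 0, 0, 0 and 1.21 in WT and 70.1, 82, 77.1 and 117 in the KO. Gm14418, with 30.2% shared, was listed at 0 in all 4 WT libraries and was at 110.0, 117, 94.9 and 120.0 in the KO. In each of these 3 genes the groups were separate.

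**Figure D3:**
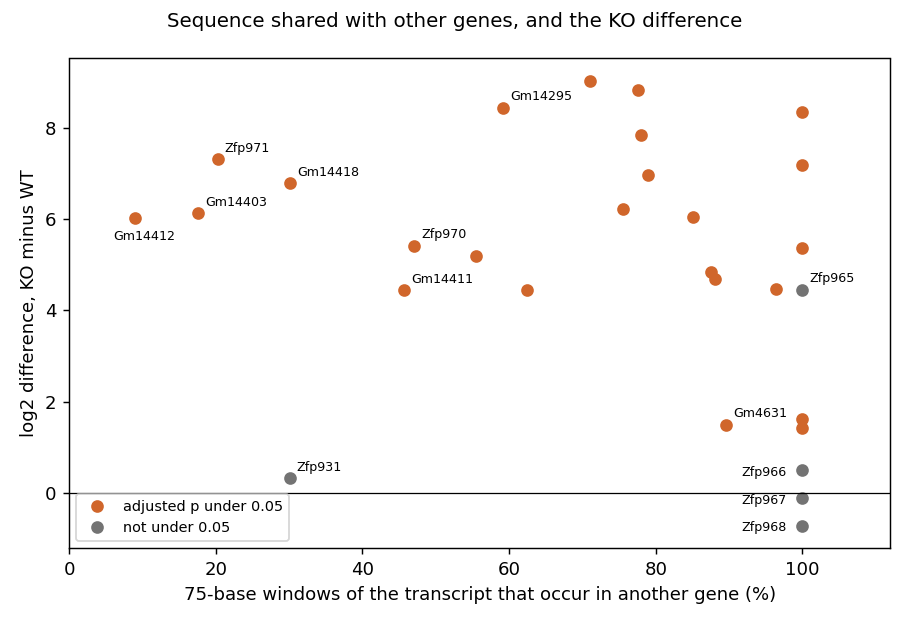
Share of 75-base windows of the canonical transcript that also occur in another gene (percent, horizontal) against the log2 difference, KO minus WT (vertical), for the 27 members of the interval with Zfp971 and Zfp931. Called genes occur from 9.02% shared (Gm14412) to 100% shared, and the 4 uncalled genes of the interval all lie at 100%.

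Values were also summed over genes joined by shared windows. Genes were joined into a family when 99% or more of the windows of either occurred in the other, a rule made after these values had been seen. The rule also joins a short transcript to a longer one that holds it. All windows of Zfp965 occurred in Zfp973, but 76.2% of those of Zfp973 occurred in Zfp965. Zfp965 and Zfp973 summed to 1.64, 4.13, 0 and 2.96 in WT and 288, 267, 277 and 325 in the KO. The highest KO value was 26 times the lowest for Zfp965, 2.08 times for Zfp973 and 1.21 times for the sum. 2210418O10Rik and Gm14296 summed to 1.97, 1.37, 13.3 and 4.68 in WT and 1089, 1245, 948 and 1201 in the KO, where the highest was 1.31 times the lowest, against 3.53 times for 2210418O10Rik and 1.54 times for Gm14296. In both families each gene varied more between KO libraries than the sum. In others this was not so: the coefficient of variation over KO libraries was 1.82% for Gm14419 and 17.3% for Gm2004 against 9.97% for their sum, and 9.40% for Zfp966 against 11.3% for its sum with Zfp967 and Zfp968.

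The families expressed in WT showed both outcomes. Zfp966, Zfp967 and Zfp968 summed to 576, 439.9, 367 and 594 in WT and 453, 496, 458 and 575 in the KO, with overlapping groups and means of 494 and 495 and SDs of 109 and 56.1 (n = 4). Gm4631, Gm4724 and Gm2026 formed a family with Gm14434 and Gm14308, which are no members. Its sum was 1078, 956, 835 and 1078 in WT and 2746, 2651, 2688 and 2806 in the KO, a ratio of means of 2.76. Of the normalized counts of this family, most were Gm4631's in every library.

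**Figure D4:**
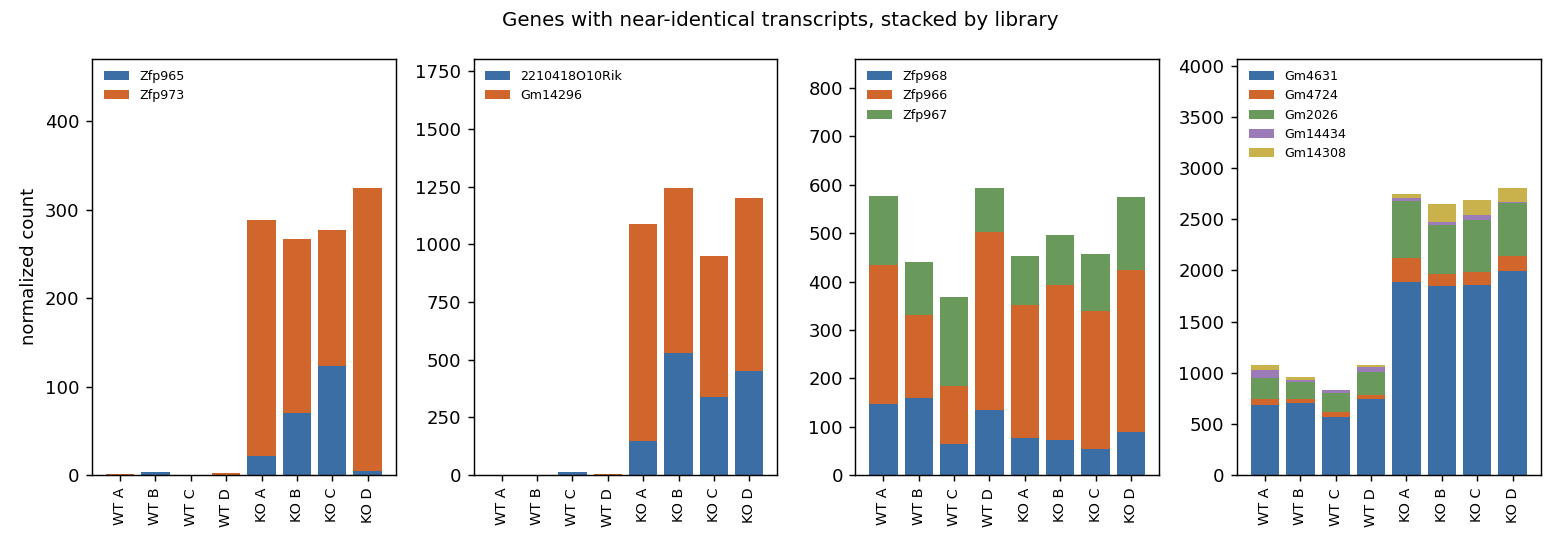
Normalized counts (vertical) of genes joined by shared 75-base windows, stacked for each of the 8 libraries, with a vertical axis of its own for each family. The 2 families on the left are near 0 in WT, with KO sums of 267 to 325 and 948 to 1245, the third is at a like height in both groups, and the fourth is 2.76 times higher in the KO on average.

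Genes with nearly the same window had unlike levels in WT. Of the pair Zfp968 and Zfp973, printed above, Zfp968 was expressed in WT with a mean of 127 ± 42.3 (SD, n = 4) and was not called, while Zfp973 was at most 2.96 in WT and reached a mean of 234 ± 73.5 in the KO. Zfp967 was expressed in both groups, and Zfp965 was at 0 in 3 WT libraries. Gm6710, which is no member and was named after its values were seen, was at 168, 104, 56 and 126 in WT and 144, 173, 131 and 159.8 in the KO, with overlapping groups, while Gm14305 was at most 4.13 in WT and at least 561 in the KO and Gm14295 was at 0 in all 4 WT libraries. These are all of the pairs with 1 difference, and they are not independent, since 2 hold the same site and 2 share Gm6710. In Zfp968, Zfp967, Zfp965 and Gm6710 every 75-base window of the canonical transcript also occurred in another gene. Their single levels may therefore depend on how reads were divided among copies.

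Of the 6 pairs with identical windows, 3 joined genes with no WT value above 13.3 (Gm14305 and Gm14295, 2210418O10Rik and Gm14296, Gm2004 and Gm14419), and 3 joined genes with no WT value under 18.2 (Gm4724, Gm2026 and the non-member Gm14434). The windows of Gm4724 and Gm2026 were identical to each other and differed at 2 of 300 positions from those of Gm14305 and Gm14295, which were identical to each other. In WT, Gm2026 had a mean of 193 and Gm14295 was at 0. Zfp970 and Zfp971 differed at 7 positions, and Gm14403 and Zfp971 at 11, and all 3 of these genes were called.

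**Figure D5:**
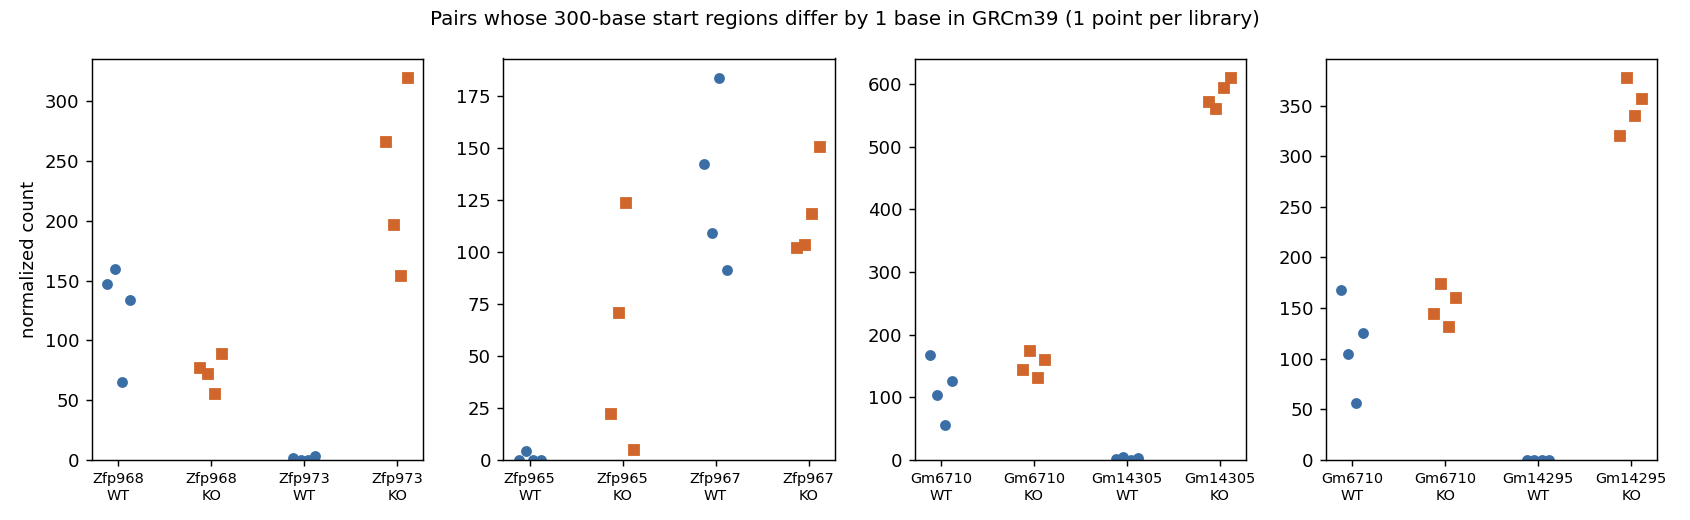
Normalized count (vertical) of the 4 pairs of genes whose 300-base windows around the canonical transcript start differ by 1 base in GRCm39, in order of position, with 1 point for each WT (circles) and KO (squares) library. Zfp968, Zfp967 and Gm6710 are expressed in both groups, and Zfp973, Zfp965, Gm14305 and Gm14295 are at or near 0 in WT.

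Beyond the distal end of the interval 1 further member was called. That end is set by the last gene listed for its rise, so it marks no boundary found in the data. Zfp971 (chr2:177665042-177700370, plus strand) starts 65.9 kb after the last listed gene. It was at 0, 0, 5.7 and 0 in WT and 214, 275, 272 and 263 in the KO, so that the groups were far apart. The log2 difference was 7.31 ± 0.59 (SE, n = 4 per group, limma adjusted p = 0.000247), and 20.2% of its windows were shared with other genes.

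The next gene, Zfp931 (chr2:177693532-177720294), overlaps the end of Zfp971 by 6839 bases on the opposite strand. It was at 254, 186, 183 and 323 in WT and 304, 274, 291 and 282 in the KO, with overlapping groups (log2 difference 0.32 ± 0.18, limma adjusted p = 0.331). The library kit keeps the strand, and whether the counting used it is not given in the sources used here. Reads of any exon in the overlap may thus not be told apart.

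Genes around the members on chromosome 2 were not called. In the interval, 5 genes of the table were no members (Gm14288, Gm6710, Zfp968-ps, Gm14434 and Gm14308), and limma called 0 of them, against 0.437% of all genes tested. The unadjusted p was under 0.05 for 3 of the 5, against 16.6% of all genes tested. Gm14308 had the largest difference of these, at 45.9, 30.9, 7.45 and 16.6 in WT and 42, 177, 149 and 139 in the KO, with overlapping groups (2.37 ± 0.59, limma adjusted p = 0.286). It was thus left out of the list although its difference was above that of Gm2026, the listed gene with the smallest at 1.42. Within 5 Mb on either side, limma called 0 of 90 tested genes that were no members (0.437% over all genes). The unadjusted p was under 0.05 for 21 (16.6% over all genes), and the median log2 difference was -4.71e-05. Zfp937, which lies 25.1 Mb before the interval, was at 505, 311, 357 and 514 in WT and 522, 517, 583 and 589 in the KO (0.42 ± 0.17, limma adjusted p = 0.301).

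On the other 10 chromosomes limma called 0 of 43 members, where the share over all genes was 0.437%. An unadjusted p under 0.05 was found for 10 of the 43, where the share over all genes was 16.6%. Over these 43 genes the log2 differences ran from -1.15 to 0.58 with a median of 0.22, and the smallest adjusted p was 0.256. Every one of them was expressed in WT, with means from 24.2 for Zfp977 to 913 for Zfp949. Zfp971 was the only member outside the interval that was near 0 in WT. The deposited values cover only genes with a mean of at least 8.50. A gene near 0 in WT is thus among them only if it was higher in the KO.

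The 6 members outside the interval with the highest levels were Zfp949, Zfp933, Zfp952, Zfp950, Zfp941 and Zfp945. Zfp949 on chromosome 9 was at 851, 923, 947 and 929.8 in WT and 800.2, 907, 788 and 964 in the KO. Zfp933 on chromosome 4 was at 738, 807, 759 and 799 and 792, 677, 775 and 740.1. The groups overlapped for both, with log2 differences of -0.08 ± 0.09 and -0.06 ± 0.08 (limma adjusted p = 0.587 and 0.671).

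Zfp952 on chromosome 17 was at 725, 550.2, 515 and 677 in WT and 813, 845, 835 and 817 in the KO. Its groups did not overlap, and its log2 difference was 0.44 ± 0.12 (limma adjusted p = 0.301). Zfp941 on chromosome 7 was at 694, 710.4, 441 and 713 in WT and 779.6, 759.6, 751 and 730.0 in the KO, again without overlap (0.27 ± 0.15, limma adjusted p = 0.338). Every KO library lay above every WT library in 7 of the 46 members outside and below in 2, against 6.16% and 3.58% of all genes tested.

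Zfp950 on chromosome 19 was at 723, 526, 591 and 766 in WT and 773, 777, 730.4 and 810.3 in the KO (0.26 ± 0.12, limma adjusted p = 0.304). Zfp945 on chromosome 17 was at 724, 449.6, 332 and 696 in WT and 676, 706, 688 and 668 in the KO (0.39 ± 0.23, limma adjusted p = 0.347). In both genes WT B and WT C were the low libraries, and WT A and WT D lay among the KO values or close to them. Without WT B and WT C the difference of Zfp945 was -0.052. Of the 46 members outside, 15 have a span, introns included, that overlaps another gene of the table. In 7 of these, Zfp949, Zfp941 and Zfp981 among them, the strand is the same. Reads of any exon shared in this way cannot be given to either gene with certainty. Zfp950 overlaps Grk5 on the opposite strand, with the doubt named for Zfp931.

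This held for many of the members outside. In 28 of the 46, WT B and WT C were both below WT A and WT D, against 35.8% of all genes tested. With all libraries, 37 of the 46 had a log2 difference above 0, with a median of 0.25. Without WT B and WT C, 27 of the 46 were above 0 with a median of 0.044, against 0.012 over all genes tested. On chromosome 17 the median of 13 members went from 0.39 to 0.086. The median of the 6 Zfp9xx members in the interval went from 2.47 to 2.54. The 2.47 falls in the gap described above and stands for no single gene. What sets WT B and WT C apart was not tested.

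The members on chromosome 4 are described without a test against other chromosomes. Of the 9, 7 had a log2 difference under 0 with all libraries and 9 without WT B and WT C, with medians of -0.12 and -0.42. Zfp981 was at 34.3, 45.1, 39.8 and 38.1 in WT and 24.1, 25.3, 19.9 and 21.8 in the KO (-0.76 ± 0.18, limma adjusted p = 0.256). Zfp982 was at 35.6, 45.4, 19.1 and 38.7 in WT and 17.5, 15.2, 10.7 and 14.8 in the KO (-1.15 ± 0.30, limma adjusted p = 0.301). In these genes alone among the 46 every KO library lay below every WT library. Zfp991, which shares 57.5% of its windows with other genes, was at 187, 108, 115 and 208 in WT and 127, 133, 119 and 120.5 in the KO.

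The genes through which KRAB zinc finger proteins act were not called. Of a list of 17 corepressor genes, 15 were tested and limma called 0 (0.437% over all genes). The unadjusted p was under 0.05 for 3 (16.6% over all genes), and the median log2 difference was -0.039. Trim28, which binds the KRAB domain, was at 5129, 6208, 6367 and 4681 in WT and 5389, 5209, 5127 and 5643 in the KO, with overlapping groups. Setdb1, a histone methyltransferase recruited by Trim28, was at 1382, 1361, 1354 and 1366 in WT and 1438, 1487, 1554 and 1489 in the KO. All 4 KO libraries were above all 4 WT libraries for Setdb1, by a log2 difference of 0.13 ± 0.06 (limma adjusted p = 0.308). The 3 with an unadjusted p under 0.05 were the chromatin remodeller Chd3 (log2 difference -0.55), Morc2a (-0.45) and the histone deacetylase Hdac2 (0.20). Chd3 was at 7789, 13106, 12710.0 and 6598 in WT and 6442, 6528, 6525 and 6698 in the KO, and Morc2a was at 2244, 3712, 3419 and 1926 and 2173, 1968, 1932 and 1907. In both, WT B and WT C were the high libraries.

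Other KRAB zinc finger genes whose targets have been studied were not called either. Of 8 such genes 7 were tested, and limma called 0 (0.437% over all genes). The unadjusted p was under 0.05 for 1, Zfp708 (16.6% over all genes). Zfp57 and Zfp445, which keep imprinted genes methylated, had log2 differences of -0.18 ± 0.16 and 0.27 ± 0.13. Zfp708 was at 50.9, 23.2, 12 and 51.2 in WT and 72.6, 63, 75 and 72.2 in the KO, a log2 difference of 1.24 ± 0.42 (SE, n = 4 per group, limma adjusted p = 0.301), and WT B and WT C were its lowest libraries. Among 293 other genes with a Zfp number that were tested, limma called 0 (0.437% over all genes). The unadjusted p was under 0.05 for 49 (16.6% over all genes), and the median log2 difference was 0.070.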

How the data were processed

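Total RNA of the retina of WT and quadruple KO mice was sequenced in 4 libraries per group, from 450 ng of RNA with a directional kit. The number of mice behind each library is not stated. Per the labels and the methods, the authors trimmed reads with Trim Galore 0.6.7, aligned them with STAR 2.7.9a to GRCm39, estimated gene counts with Salmon 1.5.2 and normalized them with DESeq2 1.32.0. The deposited values are the authors' normalized estimated counts per library. They are not whole numbers, so no count model was used. The table also holds the authors' mean, fold change, standard error, p-value and adjusted p-value, none of which were used. It lists genes with a mean of at least 8.50. Near-copies could be split between genes by the authors' estimation. The annotation release and any use of strand in counting are not given in the sources used here.

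Log2(normalized count + 1) was compared between groups with limma 3.58.1 in R 4.3.3 (lmFit, eBayes with trend) over 17636 genes with a mean of 10 or more, with Benjamini-Hochberg adjustment over all of them. No member was under this minimum, so the exact test planned for such genes was not needed. The sum of normalized counts was 36.1 to 42.2 M per library, and the spacing of low values put the depth at 23.8 (WT B), 27.3 (WT C) and 36.1 to 52.5 M reads (the others). At most 68.6% of low values lay within 0.1 of a whole step, so these depths are rough and whole reads were not recovered. Positions, exonic lengths and transcripts came from GENCODE M39. Self-tests on simulated data were run.

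The members and all lists were chosen with earlier results of these data known. Named with their values in all libraries were the 12 interval members with the highest KO mean, each called Zfp9xx gene outside the interval and the 6 highest there. Others were named for shared sequence, or after their values were seen. Alternatives tried were other scalings, filters, pseudocounts and variance priors, array weights, the letter as a block, and leaving out each library or WT B and WT C.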

Additional observations from a re-analysis of the deposited data

Results flagged for a closer look

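In each group of 4 libraries, the highest or lowest value of each member was compared with the others by Dixon's ratio of the gap to the whole range, at its 95% limit. Of 136 groups with any spread, 12 held a value past the limit. Chance gives about 1 in 20 for continuous values, but in 6 of the 12 the other 3 values were 0, where any value above 0 passes the limit, so the count is not read against chance.

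In the interval most of these were single low WT values beside zeros. Gm14419 was at 1.08 in WT A, Gm14421 at 1.01 in WT A, Gm14325 at 1.99 in WT A and Gm14403 at 1.21 in WT D, and each was listed at 0 in the other 3 WT libraries. Zfp965 was at 4.13 in WT B and at 0 in the other 3. 2210418O10Rik was at 13.3 in WT C, against at most 0.904 in the others. Zfp971, just beyond the interval, was at 5.70 in WT C and at 0 in the others. In the KO, Gm14325 was at 656 in KO D against 696 to 701.

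Outside, Zfp941 was at 441 in WT C against 694 to 713, and Zfp974 was at 625 in WT B against 539 to 552. Among KO libraries Zfp992 was at 383 in KO D against 326 to 334, and Zfp976 was at 131 in KO C against 144 to 145.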

How the results depend on the processing

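Of 24 members called, the same 24 were called under quantile or median-ratio scaling, no filter, a pseudocount of 10 or 0.1, and a robust prior. With a minimum mean of 100 only 49 members were tested and 12 were called. Outside the interval 1 member (Zfp971) became 2 without the variance trend (also Zfp981, lower in KO, adjusted p = 0.0354), with array weights (also Zfp982, lower, adjusted p = 0.0222) and without WT B and WT C (also Zfp991, lower, adjusted p = 0.0479). Array weights, which also called Zfp965 (higher) and Zfp968 (lower), gave 143 calls over all genes in place of 77. Leaving out each library in turn gave 21 to 24 called members, 1 outside and 54 to 89 genes in all. Gm14411 fell under the minimum mean and was not tested without any 1 of the KO libraries, and likewise Gm1980 without KO B or KO C. Gm4724 was tested and lost its call without WT B, WT C, KO C or KO D, and Zfp965 was called without KO D. Zfp971 kept its call throughout, with log2 differences of 4.56 to 9.85. Without WT B and WT C the difference of Zfp945 turned from 0.39 to -0.052. Within 5 Mb of the interval the non-member Pmepa1 was called without WT B and WT C, and no other was under any alternative. In the interval 0 non-members were called under all alternatives, and 0 corepressor and 0 other studied KRAB zinc finger genes. Of other numbered Zfp genes 0 to 1 were called when libraries were left out. The letters A to D did not pair the libraries (correlations of same-letter deviations from -0.11 to 0.098). With the letter as a replicate block the same 24 members were called and 51 genes in all. Except as stated, the cause was not tested. Depth limits the genes at 0 in WT: the file has no counts, so no limit on their WT level was set.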

Other observations

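Just before the interval, Gm14440, which is no member, was listed at 0 in WT A, WT B, WT C, KO A and KO D and at 173 in WT D, 107 in KO B and 96.4 in KO C. Every window of its transcript also occurred in Gm14288, inside the interval. The values of both genes summed to 363, 237, 308 and 356 in WT and 439, 511, 435 and 531 in the KO. No KO sum was as low as the highest WT sum, which is also true of 6.16% of single genes tested, and these genes were chosen after their values were seen.

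Gm14391, in the same flank, shared all of its windows with Gm6710. Their sums were 576, 486, 507 and 635 in WT and 695, 581, 602 and 640.3 in the KO, with overlapping groups. Gm14399 was at 214, 108, 116 and 245 in WT and 254, 266, 265 and 238 in the KO, with WT B and WT C again the lowest libraries.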
